A study of Mus musculus with 8 samples.

Results

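Apolipoproteins are the protein components of the particles that carry lipids in blood. The 10 genes described here, Apoa1, Apoa2, Apoa4, Apoa5, Apob, Apoc1, Apoc2, Apoc3, Apoe and Apom, were chosen by symbol from the 55487 genes of the table, and all 10 passed the expression filter that left 14353 genes for testing. In libraries labelled Bmal1-/-, Apoa1 mRNA was 2.98-fold higher than in libraries labelled Bmal1+/+, while Apoa4 mRNA was 2.32-fold lower and Apom mRNA 2.02-fold lower. The other 7 genes did not pass the test, and among them Apob and Apoe had the largest positive differences.

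Per the labels, the RNA came from the stromal vascular fraction of subcutaneous MC38 tumors, that is, the cells left after GFP-labelled tumor cells were removed by sorting, a source that the markers below put in question. MC38 is a mouse colon carcinoma cell line. The labels give 4 samples of hosts labelled Bmal1+/+ and 4 of hosts labelled Bmal1-/-. Per the study's methods, mice of both genotypes were bred from Bmal1+/- founders, and the deletion was in the host and not in the implanted tumor cells. Bmal1 (Arntl) encodes the transcription factor that pairs with CLOCK at the core of the circadian oscillator. The labels give no age, sex or time of collection, and each sample is 1 library.

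In the liver and intestine, apolipoproteins are made in quantity and secreted on lipid particles. Apolipoprotein B is the structural protein of chylomicrons, VLDL and LDL, and its translation product is lipidated by the microsomal triglyceride transfer protein. Apolipoproteins A-I and A-II form the scaffold of HDL, the C apolipoproteins and apolipoprotein A-V set how fast lipoprotein lipase removes triglyceride, and apolipoprotein E is the ligand through which remnants are taken up. Macrophages also make apolipoprotein E.

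The labels were checked first. Arntl had 15 to 45 counts in the libraries labelled Bmal1+/+ and 444 to 524 counts in those labelled Bmal1-/-, so the targeted gene went against the label. The counts are per gene and do not separate the deleted part of Arntl. Other clock genes also differed: Dbp, a target of BMAL1, averaged 94.8 CPM in libraries labelled Bmal1+/+ and 4.74 CPM in those labelled Bmal1-/-, and Npas2, a partner of BMAL1, 0.151 and 36.3 CPM, while Nr1d1 and Nr1d2, also BMAL1 targets, fell (values below). In libraries labelled Bmal1-/-, Dbp, Nr1d1 and Nr1d2 were thus lower, while Npas2 and Arntl were higher. The Arntl counts include any undeleted part. The labels give no time of collection, and the part of time of day in these values was not tested. Whether labels were exchanged was not tested either. The groups are therefore named as libraries labelled Bmal1+/+ or Bmal1-/- throughout. Xist, expressed from the inactive X chromosome, averaged 942 CPM against 0.343 CPM, and 4 Y-linked genes together had 0 counts in every library labelled Bmal1+/+ and 1785 to 2292 counts in those labelled Bmal1-/-. Genotype label and the sex of the mice therefore cannot be told apart in any result below. All 20 hepatocyte markers were detected, and their sum was 115413 to 130055 CPM in libraries labelled Bmal1+/+ and 62215 to 73353 CPM in those labelled Bmal1-/-, against at most 264 CPM for 14 fibroblast markers in any library. Of the 20 hepatocyte markers, 2 fell and 1 rose, and their median log2 fold change was -0.0036. Among all tested genes 16.2% fell and 14.9% rose. Albumin (Alb), which fell (log2 fold change -2.10), averaged 69270 CPM in libraries labelled Bmal1+/+ and 16144 CPM in those labelled Bmal1-/-. Alone it took 6.48% to 7.08% and 1.25% to 1.93% of counts. Defining markers of the labelled stromal fraction were thus far less abundant than those of hepatocytes, which goes against the labelled source. Of 11 fibroblast markers tested 7 fell and 0 rose, with a median log2 fold change of -0.76 and sums of 173 to 264 CPM in libraries labelled Bmal1+/+ and 124 to 131 CPM in those labelled Bmal1-/-. Of 14 enterocyte and colon tumor markers, 4 had no count in any library and 6 were tested.

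The 3 sequences below show where the genes of the chromosome 9 cluster begin, because Apoa1 and Apoa4 moved in opposite directions there and the Apoa5 window was the only one of 8 examined with an E-box. RefSeq promoter windows of GRCm38.p6 were found for 8 members (Apoc1 and Apoc3 had no entry), and the 250 bases before each RefSeq start were searched on both strands for CACGTG (the palindromic E-box bound by BMAL1 and CLOCK), AGGTCA (the single repeat bound by many nuclear receptors), CAAAG (the core of HNF4-type sites, which can share letters with AGGTCA), TTATGTAA (the D-box bound by DBP) and TATAAA. Sequences are printed 5′ to 3′ on the plus strand, up to the first base of the GENCODE gene, and capitals mark motif matches.
Apoa1, chr9:46228380-46228579: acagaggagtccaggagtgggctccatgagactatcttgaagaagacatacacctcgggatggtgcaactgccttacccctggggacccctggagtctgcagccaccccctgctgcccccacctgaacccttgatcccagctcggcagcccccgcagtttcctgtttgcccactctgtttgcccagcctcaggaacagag
Apoa4, chr9:46240594-46240695: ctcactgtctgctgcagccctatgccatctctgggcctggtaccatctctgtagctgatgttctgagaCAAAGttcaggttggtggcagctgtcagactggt
Apoa5, chr9:46268383-46268632: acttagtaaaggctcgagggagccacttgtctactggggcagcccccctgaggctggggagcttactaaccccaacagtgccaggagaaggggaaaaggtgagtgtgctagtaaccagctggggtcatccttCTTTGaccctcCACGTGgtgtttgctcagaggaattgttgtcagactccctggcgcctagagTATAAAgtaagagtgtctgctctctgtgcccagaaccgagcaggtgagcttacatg

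The Apoa1 window held none of the 5 motifs, and the Apoa4 window held CAAAG 182 bases before the RefSeq start. The Apoa5 window held CAAAG on the minus strand at 118 bases, the E-box at 107 bases and the TATAAA match at 56 bases before the start. CACGTG was present in 1 of the 8 windows, against 6.02% of all 32851 windows in the RefSeq table. CAAAG was present in 5 of 8 against 48.6%, TATAAA in 3 of 8 against 12.4%, AGGTCA in 1 of 8 (Apoc2) against 14%, and TTATGTAA in 0 of 8 against 0.819%. A match says only that these letters lie in the window. For Apoa1, Apoa4 and Apob the RefSeq start lies inside the GENCODE gene, so part of each searched window is within the gene. How much of the Apom window lies before its gene is not given. The counts above are therefore of windows before RefSeq starts, and not all of these windows are sequence upstream of a gene.

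Levels are given as CPM, counts scaled to a common library total after TMM normalization. Library totals were 14783346 to 18449143 counts in libraries labelled Bmal1+/+ and 14054825 to 15624815 in those labelled Bmal1-/-. A count of 3, taken as the detection floor, was worth 0.163 to 0.213 CPM, which covers counting error only, and every member lay above it in every library. Each gene was tested by quasi-likelihood in edgeR, with p adjusted over all 14353 genes by the Benjamini-Hochberg method, and "rose" and "fell" below mean an adjusted p under 0.05. The labels do not tie samples to separate animals beyond the stated n, so the p-values measure the spread between these samples. In bulk RNA, fewer cells of a type and less RNA per cell cannot be told apart.

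Of the 10 members, 1 rose and 2 fell. Among all tested genes, 14.9% rose, 16.2% fell and 31.1% changed in either direction, so the members' share of calls lay near that of all genes. The median log2 fold change was 0.26 over the members and 0.02 over all tested genes. By the study's criterion, an absolute log2 fold change above 1 with an unadjusted p below 0.05, 2 members were lower and 2 higher, against 8.71% and 5.41% of all tested genes. The groups did not overlap for 4 members, against 33.4% of tested genes. Counts on the 10 genes made up 1.77 ± 0.133% (SD, n = 4) of each library labelled Bmal1+/+ and 2.88 ± 0.508% (SD, n = 4) of each library labelled Bmal1-/-, and the ranges, 1.63% to 1.93% and 2.17% to 3.31%, did not overlap. This share is of unscaled counts, and 7 of the 10 genes in it did not pass the test. The largest of those 7 in libraries labelled Bmal1-/- were Apoe (6992 CPM) and Apob (6347 CPM).

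**Figure D1:**
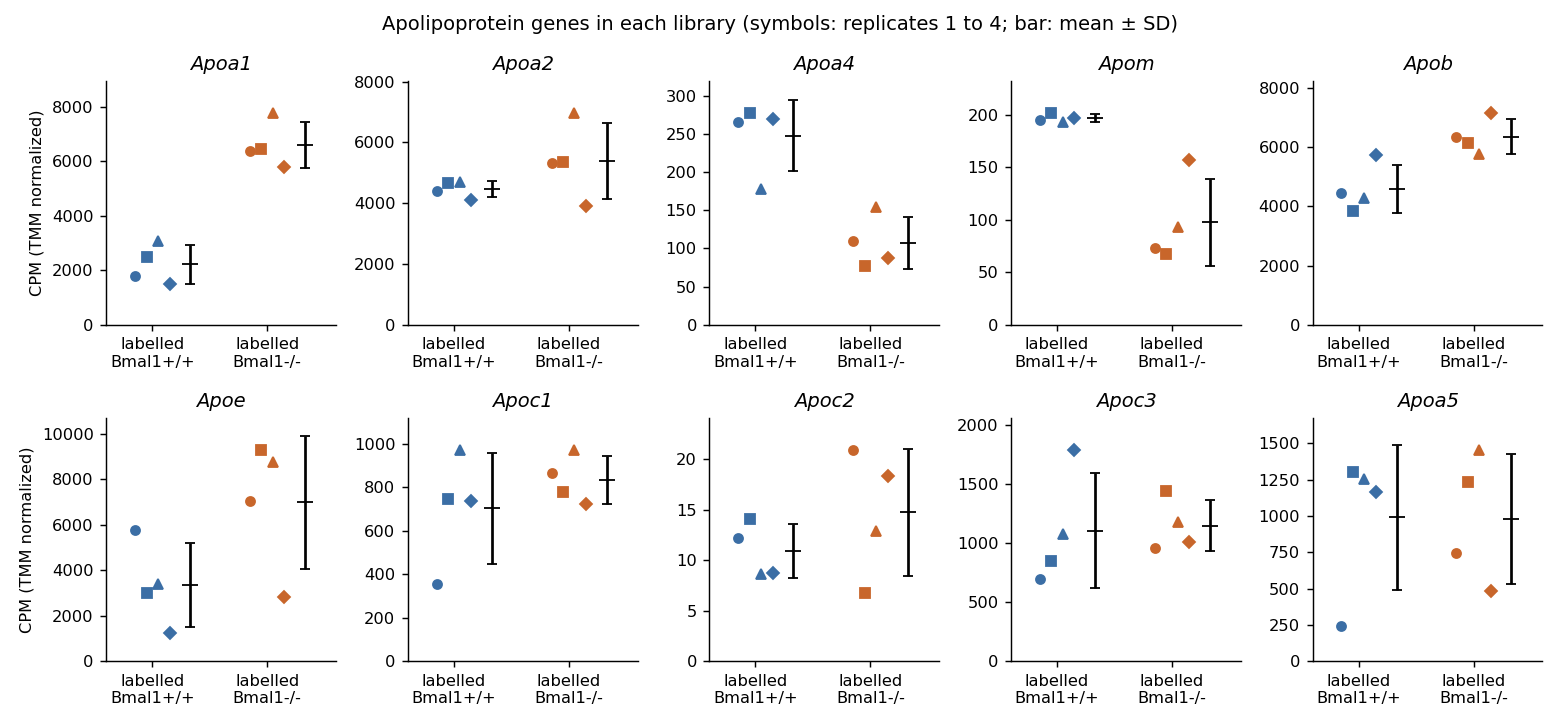
CPM of each apolipoprotein gene in each of the 8 libraries (y axes start at 0 and differ between panels), with symbols for replicates 1 to 4 and the mean ± SD beside them. Apoa1 was at 5781 CPM or more in every library labelled Bmal1-/- and at 3065 CPM or less in every other, whereas Apoa5, Apoc1, Apoc2 and Apoc3 overlapped.

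Among the HDL proteins, Apoa1 (ENSMUSG00000032083) encodes the main protein of HDL and the activator of the enzyme LCAT. It lies on chromosome 9 of GRCm38 from 46228580 to 46230466, on the plus strand. Its level was 1785, 2495, 3065 and 1505 CPM in replicates 1 to 4 labelled Bmal1+/+, and 6371, 6449, 7782 and 5781 CPM in those labelled Bmal1-/-. The lowest of the latter was thus well above the highest of the former. The log2 fold change was 1.58 (SE 0.24, adjusted p = 0.0011), from 2213 ± 705 to 6596 ± 845 CPM (SD, n = 4).

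Apoa2 (ENSMUSG00000005681, chromosome 1, 171225054 to 171226379, plus strand) encodes the second most abundant HDL protein. Its level was 4401, 4663, 4697 and 4097 CPM in libraries labelled Bmal1+/+ and 5315, 5351, 6970 and 3914 CPM in those labelled Bmal1-/-. The groups overlapped through replicate 4 labelled Bmal1-/-, which had the lowest value of all. This was a log2 fold change of 0.27 (SE 0.19, adjusted p = 0.30). Without that library it was 0.40 (adjusted p = 0.0499), past the threshold.

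Apoa4 (ENSMUSG00000032080, chromosome 9, 46240696 to 46243459, plus strand) encodes a protein of chylomicrons and HDL best known from the intestine, with a lower output from mouse liver. It was measured at 266, 278, 178 and 269 CPM in libraries labelled Bmal1+/+ and at 109, 76.7, 155 and 87.4 CPM in those labelled Bmal1-/-. Apoa4 was lower in all 4 of the latter, although replicate 3 of each group came close to the other group. The fall was 1.21 on the log2 scale, a log2 fold change of -1.21 (SE 0.23, adjusted p = 0.0035). The gene shares 34.9% of its exon bases with Gm47528 and 34.8% with Gm10680, both on the opposite strand. These had at most 58 and 2 counts in any library, whereas Apoa4 had at least 1108, and strand use in the counting is not stated.

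Apom (ENSMUSG00000024391, chromosome 17, 35128997 to 35132050, minus strand) encodes the HDL protein that carries sphingosine-1-phosphate. Its level was 195, 202, 193 and 197 CPM in libraries labelled Bmal1+/+, the narrowest spread relative to its mean among the members. It was 72.9, 66.8, 93.4 and 157 CPM in those labelled Bmal1-/-, with replicate 4 closest to the other group. Apom fell, with a log2 fold change of -1.01 (SE 0.24, adjusted p = 0.011). Replicate 4 labelled Bmal1-/- also stood apart in acute-phase genes, whose 14 members summed to 56846 CPM there and to at most 11629 CPM elsewhere. The part of this in the Apom, Apoe and Apoa2 values was not tested.

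Apob (ENSMUSG00000020609, chromosome 12, 7977648 to 8016835, plus strand) is the structural apolipoprotein of VLDL and chylomicrons, present as 1 copy per particle. It was measured at 4453, 3851, 4271 and 5751 CPM in libraries labelled Bmal1+/+ and at 6334, 6129, 5764 and 7160 CPM in those labelled Bmal1-/-. The groups did not overlap, but replicate 4 labelled Bmal1+/+ lay just under the lowest of the other group. With a log2 fold change of 0.47 (SE 0.17), the adjusted p was 0.061. Apob was called higher without that library (log2 fold change 0.59, adjusted p = 0.030) and with DESeq2 (0.46, adjusted p = 0.011).

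Apoe (ENSMUSG00000002985, chromosome 7, 19696109 to 19699188, minus strand) is the ligand through which receptors take up remnants. Its level was 5777, 3028, 3399 and 1252 CPM in libraries labelled Bmal1+/+ and 7039, 9317, 8763 and 2848 CPM in those labelled Bmal1-/-. Replicate 4 was the lowest of each group, and replicate 1 labelled Bmal1+/+ exceeded replicate 4 labelled Bmal1-/-. The log2 fold change was 1.06 (SE 0.46, adjusted p = 0.11). With 1 library left out it ranged from 0.77 (adjusted p = 0.21, without replicate 4 labelled Bmal1+/+) to 1.45 (adjusted p = 0.0504, without replicate 1 labelled Bmal1+/+). It passed the threshold in 1 of these 8 fits, at 1.32 without replicate 4 labelled Bmal1-/- (adjusted p = 0.032). With replicate 1 labelled Bmal1+/+ left out as well, an alternative added after the data were seen, it was 1.71 (adjusted p = 0.0081).

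Because macrophages also express Apoe, the macrophage markers are given beside it. Of 20 markers, 15 fell and 0 rose, beside 16.2% and 14.9% of all tested genes. Their median log2 fold change was -1.07. Their sum was 1322 to 1467 CPM in libraries labelled Bmal1+/+ and 528 to 956 CPM in those labelled Bmal1-/-. None of the 20 was at 0 throughout. In the libraries labelled Bmal1-/-, Apoe was lowest in replicate 4, where the macrophage sum was highest. The part of these cells in the Apoe level was not tested.

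Apoc3 (ENSMUSG00000032081, chromosome 9, 46232933 to 46235636, minus strand) encodes an inhibitor of lipoprotein lipase and of remnant uptake. Its level was 700, 855, 1083 and 1795 CPM in libraries labelled Bmal1+/+ and 961, 1441, 1179 and 1015 CPM in those labelled Bmal1-/-. The second group lay within the range of the first. Its log2 fold change was 0.05 (SE 0.28, adjusted p = 0.91).

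Apoa5 (ENSMUSG00000032079, chromosome 9, 46268633 to 46271919, plus strand) encodes the protein that promotes lipoprotein lipase activity, and its promoter window held the E-box printed above. It was measured at 244, 1301, 1255 and 1164 CPM in libraries labelled Bmal1+/+ and at 745, 1233, 1458 and 485 CPM in those labelled Bmal1-/-. Replicate 1 labelled Bmal1+/+ was far below the other 3 of its group, and replicates 1 and 4 labelled Bmal1-/- were below the other pair. The log2 fold change was -0.02 (SE 0.49, adjusted p = 0.98), and without replicate 1 labelled Bmal1+/+ it was -0.34. The size of the SE limits the changes of Apoa5 that could be detected. On its antisense strand Gm47544 shares 20.8% of its exon bases and had at most 7 counts.

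Apoc1 (ENSMUSG00000040564, chromosome 7, 19689481 to 19692660, minus strand) encodes a small protein of HDL and VLDL. Its level was 355, 747, 973 and 736 CPM in libraries labelled Bmal1+/+ and 866, 776, 973 and 722 CPM in those labelled Bmal1-/-. Apart from replicate 1 labelled Bmal1+/+, the groups covered the same range. The difference was a log2 fold change of 0.25 (SE 0.26, adjusted p = 0.51).

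Apoc2 (ENSMUSG00000002992, chromosome 7, 19671579 to 19677941, minus strand) encodes the required cofactor of lipoprotein lipase. It was the lowest of the 10, at 12.2, 14.1, 8.67 and 8.74 CPM in libraries labelled Bmal1+/+ and 20.98, 6.79, 12.95 and 18.3 CPM in those labelled Bmal1-/-. The second group spanned the first. The log2 fold change was 0.44 (SE 0.32, adjusted p = 0.32), on 98 to 336 counts.

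The Apoc2 value is uncertain, because 79.5% of its exon bases also belong to Gm44805, a gene model on the same strand that joins Apoc4 and Apoc2. Gm44805 had 731, 553, 830 and 621 counts in libraries labelled Bmal1+/+ and 976, 1122, 1277 and 846 in those labelled Bmal1-/-, more than Apoc2 in every library. Its groups did not overlap, and it rose by a log2 fold change of 0.76 (SE 0.19, adjusted p = 0.015). With both sets of counts summed, an alternative added after the data were seen, the log2 fold change was 0.70 (adjusted p = 0.0058). How the counting divided fragments between these models is not stated.

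**Figure D2:**
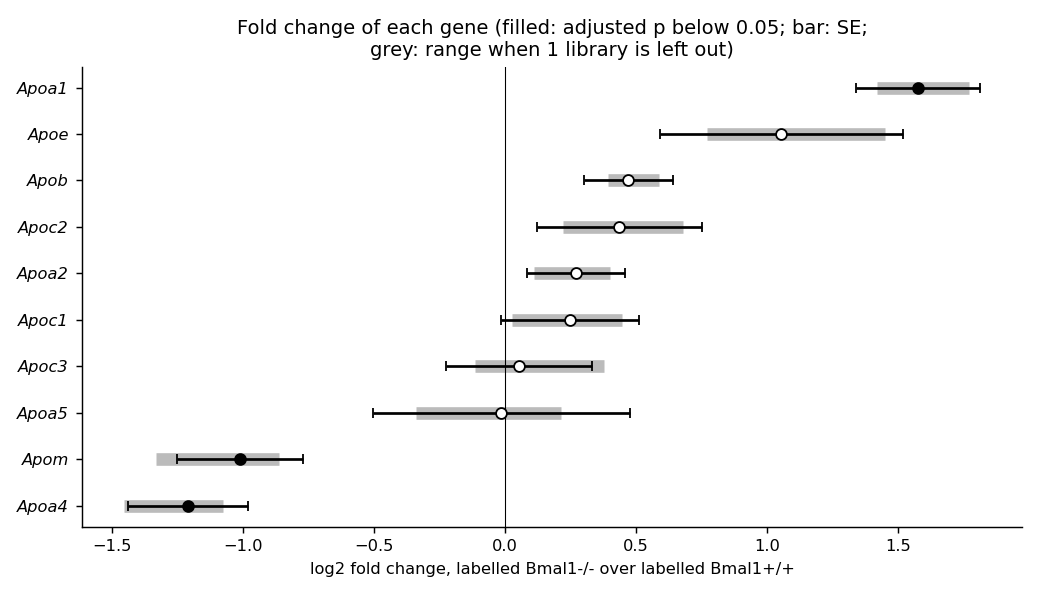
Log2 fold change of each apolipoprotein gene, libraries labelled Bmal1-/- over those labelled Bmal1+/+, with its SE as a bar, filled points for adjusted p below 0.05 and a grey range for the values with 1 library left out. Apoa1 (1.58), Apom (-1.01) and Apoa4 (-1.21) had an adjusted p below 0.05. The grey ranges of Apoa5 and Apoc3 crossed 0, and those of all other members, called or not, did not.

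Levels of different genes were compared per length, in the FPKM deposited by the authors. In libraries labelled Bmal1+/+ the order of mean FPKM was Apoa2 (2870 ± 203, SD, n = 4), Apoa1 (1478 ± 482), Apoc3 (593 ± 252), Apoc1 (547 ± 201), Apoe (514 ± 291), Apob (256 ± 44.3), Apoa5 (250 ± 126), Apom (192 ± 2.05), Apoa4 (135 ± 23.9) and Apoc2 (8.84 ± 2.11). From Apoc3 down to Apom each gene's range overlapped that of the next. Within libraries, the gene placed first in each of these pairs was the higher in 2 or 3 of 4, so the order in this stretch is uncertain. The ranges of Apoa2 and Apoa1, of Apoa1 and Apoc3, of Apom and Apoa4, and of Apoa4 and Apoc2 were separate. The last place of Apoc2 rests on counts without those of Gm44805, a same-strand model that shares 79.5% of its exon bases. Its place with both sets of counts was not tested.

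The order changed at the top in the libraries labelled Bmal1-/-. Apoa1 (4483 ± 587 FPKM, SD, n = 4) came before Apoa2 (3532 ± 833), and Apoa1 was the higher of the pair in 4 of 4 libraries although their ranges overlapped. Apoe followed with 1088 ± 465, then Apoc1 (662 ± 90.3), Apoc3 (629 ± 126), Apob (362 ± 29.2), Apoa5 (254 ± 116), Apom (96.3 ± 38.3), Apoa4 (59.4 ± 18.9) and Apoc2 (12.2 ± 5.17). From Apoe to Apoc3 and from Apob to Apoa4, each gene's range overlapped that of the next. Of the FPKM summed over the 10 genes, Apoa1 took 21.2 ± 4.63% (SD, n = 4) in libraries labelled Bmal1+/+ and 40.4 ± 2.87% in those labelled Bmal1-/-. The share of Apoa2 was 42.1 ± 2.77% and 31.4 ± 2.04%, and that of Apom was 2.83 ± 0.294% and 0.926 ± 0.565%.

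This order rests on the gene lengths that the FPKM imply, which run from 1013 bases for Apom to 17662 for Apob and are often longer than the main transcript. For Apoe the implied length was 6511 bases, 4.62 times its longest principal transcript in GENCODE (1408 bases), and for Apoc3 it was 3.5 times. In CPM per kilobase of that transcript, the means in libraries labelled Bmal1+/+ were 8618 for Apoa2, 2389 for Apoe, 2138 for Apoa1 and 2107 for Apoc3. In libraries labelled Bmal1-/- they were 10401 for Apoa2, 6373 for Apoa1, 4966 for Apoe and 2184 for Apoc3. Which of Apoa1 and Apoa2 led the libraries labelled Bmal1-/- thus depended on the length used, and so did the rank of Apoe. The shares depended on it too: of the group means in CPM per kilobase summed over the 10 genes, Apoa1 took 12.1% and 24.0%, Apoa2 48.9% and 39.2%, and Apom 1.10% and 0.363%, in libraries labelled Bmal1+/+ and Bmal1-/-.

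**Figure D3:**
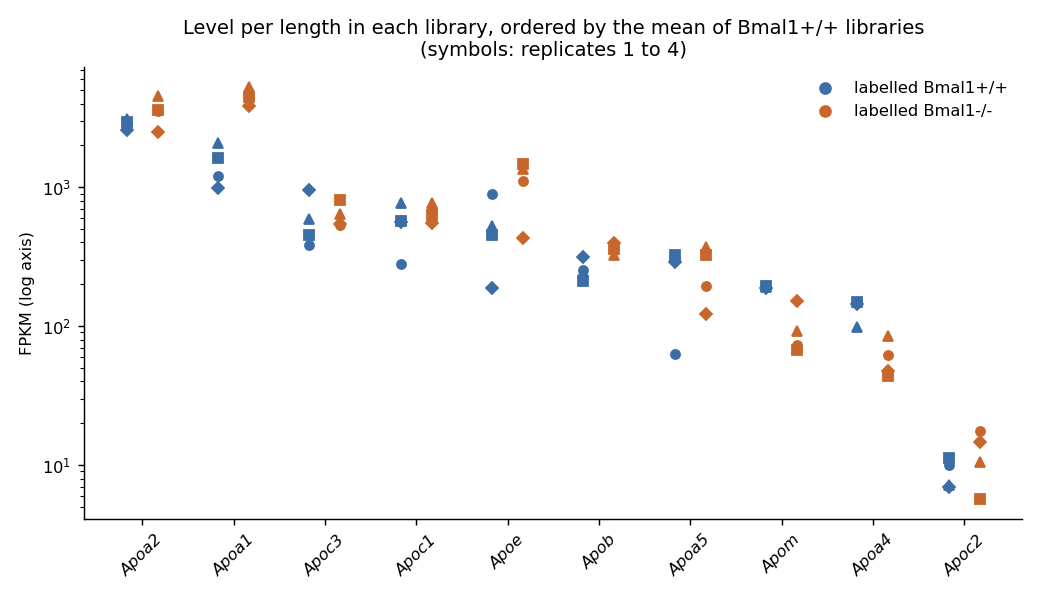
FPKM of each apolipoprotein gene (log axis) in each library, with genes ordered by the mean of libraries labelled Bmal1+/+ and symbols for replicates 1 to 4. Apoa2 led in libraries labelled Bmal1+/+ (2870 FPKM) and Apoa1 in those labelled Bmal1-/- (4483 FPKM). Apoc2 was lowest in both, on counts without those of Gm44805, which shares 79.5% of its exon bases.

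Several members are neighbours in the genome. Apoa1, Apoc3, Apoa4 and Apoa5 form a cluster on chromosome 9, and Apoc2, Apoc1 and Apoe form another on chromosome 7. To compare neighbours without any scaling between libraries, the log2 ratio of their counts within a library (0.5 added to each count) was compared by a two-sided exact permutation test over the 8 libraries, with p adjusted over 9 pairs. The smallest p that 4 against 4 libraries can give is 0.0286.

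In the chromosome 9 cluster, the log2 ratio of Apoa1 to Apoa4 was 2.48 to 4.10 in libraries labelled Bmal1+/+ and 5.65 to 6.39 in those labelled Bmal1-/-, with no overlap. The mean difference was 2.86 (exact permutation p = 0.029, adjusted p = 0.086). Apoa1 to Apoc3 differed by 1.495 and Apoa4 to Apoc3 by -1.37, each without overlap and with the same exact permutation p and adjusted p. The ratios of Apoa1 to Apoa5 (difference 1.502) and of Apoa4 to Apoa5 (difference -1.36) had an exact permutation p of 0.086 and an adjusted p of 0.15. For Apoa5 to Apoc3 the difference was -0.01 (exact permutation p = 1).

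In the chromosome 7 cluster all ratios overlapped between the groups. The log2 ratio of Apoe to Apoc1 was 0.77 to 4.02 in libraries labelled Bmal1+/+ and 1.98 to 3.59 in those labelled Bmal1-/-, a difference of 0.79 (exact permutation p = 0.34, adjusted p = 0.48). Apoe to Apoc2 differed by 0.77 (exact permutation p = 0.37) and Apoc1 to Apoc2 by -0.01 (exact permutation p = 1). With 9 pairs, 0 passed the adjusted threshold and 3 had an unadjusted exact permutation p under 0.05. With 4 libraries a group, 3 pairs at the smallest possible p were too few for an adjusted p under 0.05.

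**Figure D4:**
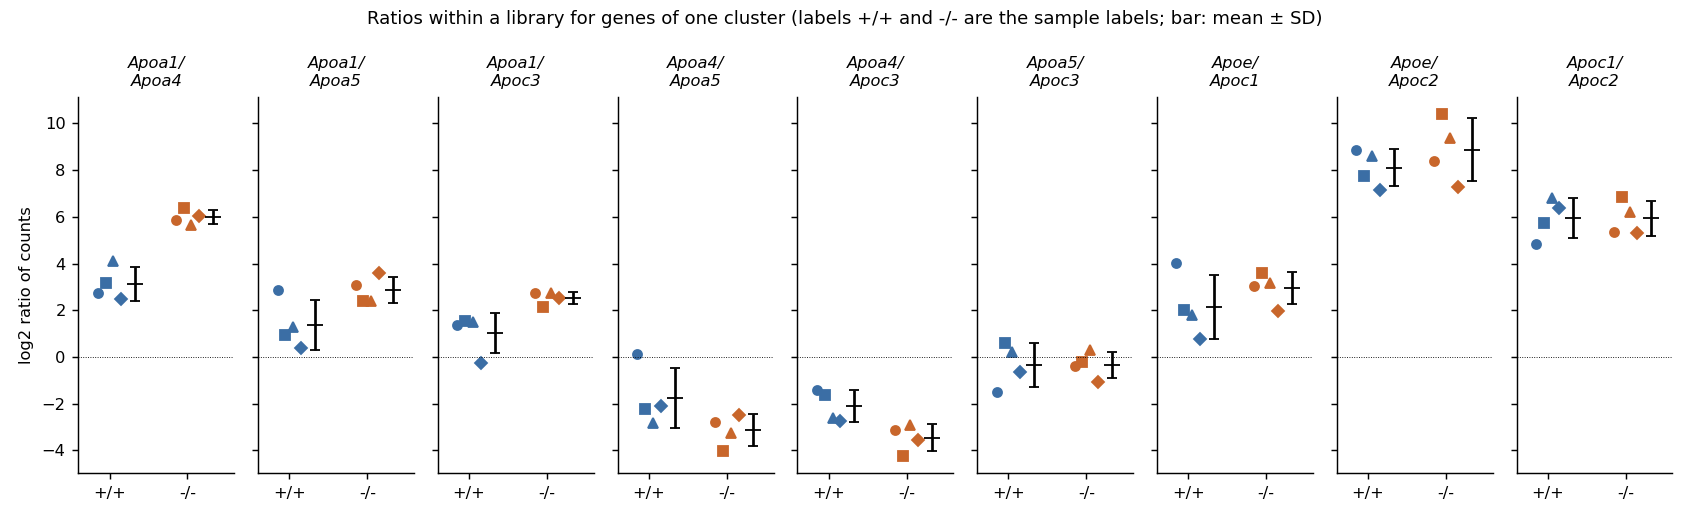
Log2 ratio of the counts of 2 neighbouring genes within each library for the 6 pairs of the chromosome 9 cluster and the 3 pairs of the chromosome 7 cluster, with symbols for replicates 1 to 4 and the mean ± SD beside them. The ratio of Apoa1 to Apoa4 went from 3.12 to 5.99 between the means of libraries labelled +/+ and -/-, and the ratio of Apoa5 to Apoc3 stayed near -0.33 and -0.34.

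Other apolipoproteins were taken as a list of 18 genes, of which 12 were tested. Of these 5 fell and 4 rose, beside 31.1% of all tested genes called in either direction. Their median log2 fold change was -0.08. By the naming rule the 4 with the smallest adjusted p are given, and all of them fell. Apol7a, of the apolipoprotein L family of intracellular proteins, went from 148 ± 26.5 to 48.3 ± 13.6 CPM (log2 fold change -1.61), Apol9a from 55.4 ± 12.3 to 17.5 ± 4.96 CPM (-1.66) and Apol9b from 85.4 ± 29.9 to 25.9 ± 11.3 CPM (-1.72). Apol9a and Apol9b are close paralogs, so fragments could be divided between them and their separate values are uncertain. Apold1, an endothelial gene related to them, went from 3.66 ± 0.495 to 0.933 ± 0.182 CPM (-1.97). Of 10 endothelial markers 5 fell and 0 rose, from a sum of 263 to 313 CPM in libraries labelled Bmal1+/+ to 185 to 226 CPM in those labelled Bmal1-/-, and the part of this in Apold1 was not tested.

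All 4 genes of the list that rose encode secreted plasma proteins. Named after their values were seen, these are Apof, Apoh, Apon and Clu, with log2 fold changes of 0.36, 0.47, 0.54 and 0.73 and adjusted p of 0.038, 0.027, 0.043 and 0.019. Apoc4, between Apoc2 and Apoc1 on chromosome 7, had a log2 fold change of 0.57 (SE 0.21, adjusted p = 0.061).

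Of 20 genes for proteins that build VLDL around apolipoprotein B, 6 fell, 2 rose and 12 did not pass, beside 31.1% of all tested genes called in either direction. Dgat2, which makes the triglyceride that is loaded, went from 1113 ± 107 to 612 ± 58.4 CPM (SD, n = 4, log2 fold change -0.86, adjusted p = 0.0011). Pla2g12b, a catalytically inactive phospholipase-like protein needed for VLDL secretion, rose from 29.5 ± 3.61 to 64.0 ± 5.78 CPM (1.12, adjusted p = 0.00014). Erlin1 and Fitm2, both proteins of the endoplasmic reticulum, fell, with log2 fold changes of -0.70 and -0.83. Mttp, the transfer protein itself and named for its role after its value was seen, had 415 ± 71.1 and 375 ± 40.7 CPM and a log2 fold change of -0.15 (adjusted p = 0.50).

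HDL formation and remodelling genes showed 5 lower and 3 higher of 14, beside 31.1% of all tested genes called in either direction. Scarb1, the HDL receptor SR-BI, rose from 109 ± 10.1 to 251 ± 29.5 CPM (SD, n = 4, log2 fold change 1.21, adjusted p = 0.00011). Pltp, the phospholipid transfer protein, fell from 82.3 ± 15.5 to 21.6 ± 4.42 CPM (-1.93, adjusted p = 6e-05). Lipg, endothelial lipase, which hydrolyses HDL phospholipid, fell from 82.0 ± 41.1 to 4.23 ± 2.53 CPM (-4.26, adjusted p = 0.00031). Bmp1, the protease that removes the propeptide of apolipoprotein A-I, rose (0.59, adjusted p = 0.0017).

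Lipoprotein receptors and uptake genes had 6 lower and 2 higher of 15 tested, beside 31.1% of all tested genes called in either direction. Vldlr, a receptor for apolipoprotein E on triglyceride-rich particles, fell from 19.1 ± 6.19 to 1.59 ± 0.294 CPM (SD, n = 4, log2 fold change -3.58, adjusted p = 1.9e-05), and Cd36, a fatty acid transporter also found on macrophages and endothelium, from 89.0 ± 36.0 to 19.8 ± 4.56 CPM (-2.17, adjusted p = 0.00055). Sdc1, a heparan sulfate proteoglycan that captures remnants in the liver, fell as well (-0.79, adjusted p = 0.0043). The part of the lower fibroblast, macrophage and endothelial markers in the falls of Pltp, Vldlr and Cd36 was not tested.

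Of 12 lipolysis regulators, 2 fell, 2 rose and 8 did not pass, beside 31.1% of all tested genes called in either direction. Lpl, lipoprotein lipase, whose cofactor is apolipoprotein C-II, rose from 11.9 ± 2.36 to 424 ± 103 CPM (SD, n = 4, log2 fold change 5.16, SE 0.24, adjusted p = 1.1e-06). Lmf1, the maturation factor of the same lipase, rose (0.51, adjusted p = 0.0031), and Angptl6, an angiopoietin-like protein, fell (-0.89, adjusted p = 0.0026). Pnpla3, a lipid droplet lipase, was at 28.4 ± 11.6 CPM in libraries labelled Bmal1+/+ and at 6 counts or fewer in every library labelled Bmal1-/- (-7.08, adjusted p = 1.2e-05), and a fitted value at so few counts depends on the prior count.

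Transcription regulators of apolipoprotein genes had 7 lower and 3 higher of 32, beside 31.1% of all tested genes called in either direction. Nr1d1 and Nr1d2, the REV-ERB repressors, of which Nr1d1 is known to repress Apoc3, fell from 44.1 ± 5.90 to 2.82 ± 1.05 CPM (SD, n = 4, log2 fold change -3.97, adjusted p = 5.4e-06) and from 145 ± 8.58 to 12.1 ± 2.87 CPM (-3.58, adjusted p = 1.3e-06). Srebf1, a driver of lipid synthesis genes, fell (log2 fold change -0.93, adjusted p = 0.00091). Hnf4a, a main activator of apolipoprotein genes in liver and named for its role after its value was seen, had a log2 fold change of -0.21 (adjusted p = 0.31). Apoc3 itself did not pass the test (0.05, above).

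**Figure D5:**
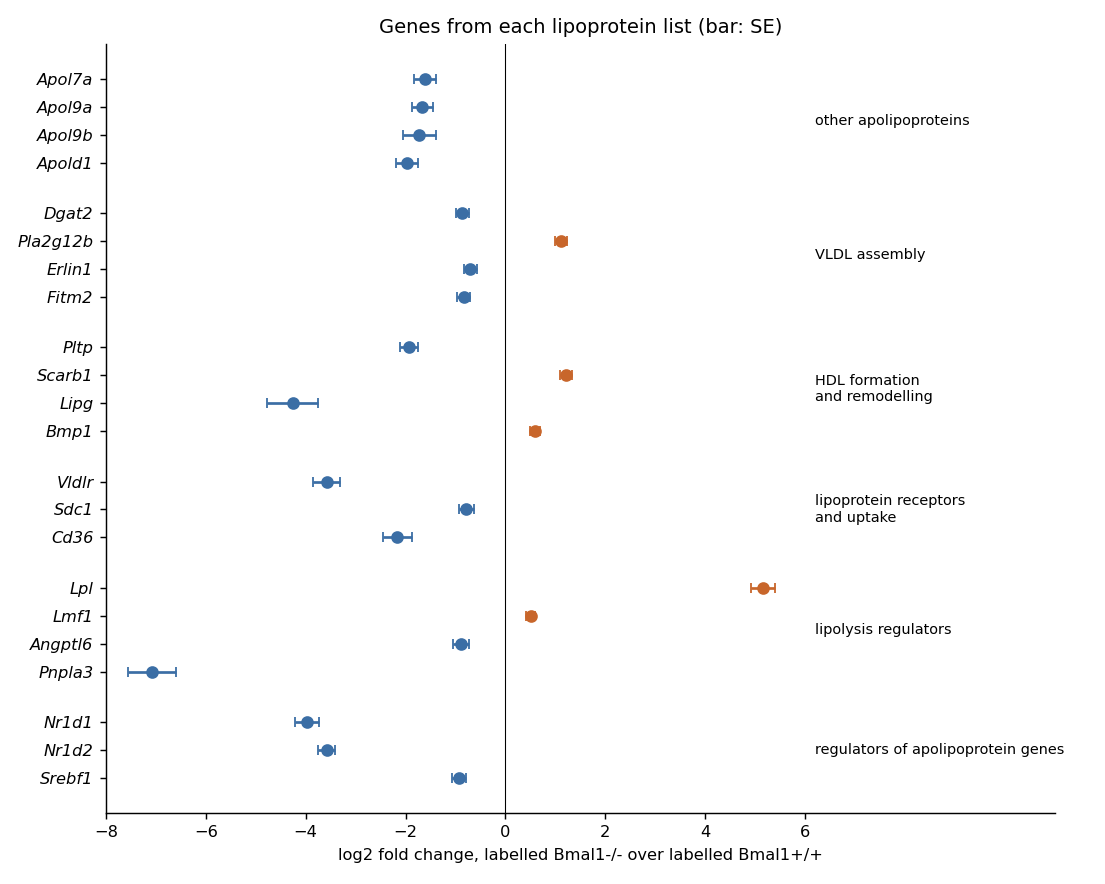
Log2 fold change with its SE, libraries labelled Bmal1-/- over those labelled Bmal1+/+, for the genes described in the text from 6 lists around the apolipoproteins, at most 4 a list. Lpl (5.16) and Pnpla3 (-7.08) mark the ends of the range of the genes drawn.

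For each member the gene with the most similar pattern was sought among 8151 other genes averaging 10 CPM or more, by the root mean square difference of log2 CPM over the 8 libraries after each gene was centred on its mean. The nearest to Apoa1 was Ociad2 (0.0711), to Apoa2 H2-Ke6 (0.0532), to Apob Serinc5 (0.0587) and to Apom Tm6sf2 (0.136), itself a member of the VLDL list. Those of Apoc3, Apoc2, Apoa4 and Apoc1 were Gm13339 (0.160), Depp1 (0.174), Azin1 (0.205) and Zfyve27 (0.207). For Apoe and Apoa5 they were Hyou1 (0.458) and Vkorc1l1 (0.437). The spread of the member itself (SD of log2 CPM over the 8 libraries) was 0.926 for Apoa1, 0.265 for Apoa2 and 0.316 for Apob. It was 0.991 for Apoe, 0.903 for Apoa5 and 0.462 for Apoc1. Relative to this spread, the nearest genes of Apoa2, Apob, Apoe, Apoa5 and Apoc1 were each farther than that of Apoa1. The measure is a description over libraries that share 2 labels.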

How the data were processed

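Per the study's methods, the authors used HISAT2 for alignment to GRCm38 and StringTie for counting, and deposited unnormalized whole-number counts of fragments. The submitters' processing notes name TopHat2 2.0.6 and CASAVA 1.8 instead. The deposited FPKM are each count over the library total and over 1 length per gene, within 1%, in 9653 of 9653 genes with at least 50 counts in every library. Strand use is not given in the sources used here.

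Groups came from the genotype labels and replicate numbers from the descriptions. Replicate 4 labelled Bmal1-/- is titled KO6, so its number in the replicate block is not that of its title. Symbols and coordinates are from GENCODE (99.4% of 55487 identifiers matched). Counts were fitted with edgeR 4.0.16 under R 4.3.3 (all 8 libraries, no replicate block, filterByExpr, TMM and the quasi-likelihood test), and neighbours by exact permutation tests. DESeq2 1.42.0 and limma 3.58.1 were alternatives, beside upper-quartile normalization, library size only and hepatocyte marker scaling. Further alternatives were 2 filters, a likelihood ratio test, a replicate block and leaving out each library. Plots used matplotlib 3.10.9 in Python 3.11.15.

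The members, lists and rule for naming genes were chosen with earlier results of these data known. Named are all members, the 4 tested genes of each pathway list with the smallest adjusted p and a mean of at least 1 CPM, the nearest gene of each member, and genes that check the labels. Other named genes were chosen after their values were seen. The results of 2 genes that the rule names are not reported here.

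In simulated data with 14176 genes for this comparison, the test recovered 63.3% of genes changed by 1 and 95% of genes changed by 2 on the log2 scale, with 13 of 170 calls false. Only 98 genes were changed by 1 and 100 by 2, whereas 31.1% of tested genes were called in the data. Recovery at such a share was not simulated. With no change simulated, 1 of 14159 genes was called. No 2 libraries of a group were duplicates: chi-square per degree of freedom was 19.6 or more in 12 pairs. Precision is limited by 4 libraries a group.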

Additional observations from a re-analysis of the deposited data

Results flagged for a closer look

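A total of 5 values stood far from the other 3 libraries of their group by Dixon's test, of 80 groups of 4 examined, and chance alone marks about 1 group in 20. Among the members, Apoa4 was at 178 CPM in replicate 3 labelled Bmal1+/+, where the others were at 266 to 278 CPM, and Apoa5 was at 244 CPM in replicate 1 labelled Bmal1+/+, where the others were at 1164 to 1301 CPM. The remaining 3 were all in replicate 4 labelled Bmal1-/-. Saa1, an acute-phase protein that binds HDL, reached 7751 CPM in it, with 17.7 CPM as the highest of the other 3, Pltp was at 28.2 CPM and Cd36 was at 26.6 CPM, each the highest of its group.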

How the results depend on the processing

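Apoa1, Apoa4 and Apom kept their direction and their call in 18 of 18 alternatives, with log2 fold changes of 1.42 to 1.77, -1.45 to -1.08 and -1.34 to -0.86. The 2 members that fell did so in each of 19 alternatives. The 1 member that rose became 3 with DESeq2 (with Apob and Apoe), 2 without normalization beyond library size (with Apob), 2 with limma-voom (with Apob), 2 with the replicate block (with Apoe), and 1 to 3 with 1 library left out: 2 without replicate 4 labelled Bmal1+/+ (with Apob) and 3 without replicate 4 labelled Bmal1-/- (with Apoe and Apoa2). It became 2 in both further fits added after the data were seen, with Apoe when replicate 1 labelled Bmal1+/+ and replicate 4 labelled Bmal1-/- were left out together, and with Apoc2 when Apoc2 and Gm44805 were summed.

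Apoa5 changed sign: its log2 fold change was 0.0216 with library size only, 0.00846 with hepatocyte marker scaling, 0.12 with limma-voom, 0.11 with the replicate block and -0.34 to 0.21 with 1 library left out. Apoc3 changed sign with 1 library left out (-0.12 to 0.38) and with both libraries left out (-0.0601). Neither was ever called. In the 6 pathway lists, whose tested numbers are given with each list above, 31 genes fell and 16 rose. Among all tested genes 16.2% fell and 14.9% rose. The 16 became 10 with hepatocyte marker scaling and 11 with the replicate block. With 1 library left out they became 10 to 17 (10 without replicate 2 labelled Bmal1+/+). The cause was not tested. No scaling moved the median of all genes by over 0.03. Replicate numbers tie no samples to a shared animal, litter or day, and same-numbered libraries did not deviate together (r between -0.04 and 0.06), nor did each library correlate best with its own number, so the replicate block is at most a hint from the data. By the exact permutation test, 0 of 9 neighbour pairs were called with 5 added to each count, or with any 1 library left out, a count added after the data were seen. The smallest possible p leaves little room for a call after adjustment over 9 pairs, so these counts of 0 do not show stability. Apoc2 rests on 98 to 336 counts a library, the least depth of the members.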

Other observations

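The protein-coding genes that flank the apolipoprotein clusters were also measured. Beside the chromosome 9 cluster, Sik3 had a log2 fold change of -0.43 (adjusted p = 0.17, edgeR) and Zpr1, which begins 1145 bases from Apoa5, of -0.60 (adjusted p = 0.078). Beside the chromosome 7 cluster, Clptm1 was at 0.21 (adjusted p = 0.35) and Tomm40, 2125 bases from Apoe, at -0.10 (adjusted p = 0.64). Of the other neighbours, Tomm40l beside Apoa2 fell (-0.70, adjusted p = 0.0072), and D17H6S53E, 142 bases from Apom, rose (0.58, adjusted p = 0.020) where Apom fell. Fcer1g beside Apoa2 (-0.60, adjusted p = 0.073), Ldah beside Apob (-0.42, adjusted p = 0.46) and Bag6 beside Apom (0.18, adjusted p = 0.18) did not pass. Among all tested genes, 31.1% were called in either direction.

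Within libraries labelled Bmal1+/+, replicate 1 had the highest Apoe (5777 CPM) and the lowest Apoa5 (244 CPM), Apoc1 (355 CPM) and Apoc3 (700 CPM), and replicate 4 had the lowest Apoe (1252 CPM) and the highest Apob (5751 CPM) and Apoc3 (1795 CPM). These are values of single libraries.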
